A study of Mus musculus with 2 samples.

Results

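The transcripts described here come from 40 genes of DNA replication and S phase, chosen by name from a standard S phase list and read in every annotated cell type of mouse jejunal crypts. All 40 were among the 27998 genes of the count matrices. They were grouped by what their products do, with 8 genes of helicase loading and activation, 8 of the polymerases, the sliding clamp and lagging strand synthesis, 3 of nucleotide supply, 10 of chromatin and histone supply, 9 of fork protection, checkpoint and repair, and 2 of S phase entry control.

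Crypts were taken from 2 male mice, each 12 months old, with the strain given as C57BL6/2J and the genotype as miR-375 knockout (375KO). The microRNA miR-375 was deleted with CRISPR/Cas9 in every cell of the body, and the line was backcrossed to B6 albino mice. Both mice carry this deletion, each mouse gave 1 droplet library, and no wild-type library was analysed here, so no value below measures an effect of the deletion. Mouse 1 contributed 2082 cells with 44017234 UMIs (unique molecular identifiers, each counting 1 captured RNA molecule) and mouse 2 contributed 1193 cells with 22163354 UMIs, with median depths of 16475 and 15232 UMIs per cell. The libraries shared 0 cell barcodes.

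DNA replication starts when the MCM helicase is loaded onto origins and then activated, after which polymerases copy both strands around the sliding clamp PCNA. The cell also needs deoxynucleotides, new histones and proteins that protect stalled forks, and much of this machinery is transcribed together by E2F factors as cells pass from G1 into S phase. In the intestinal crypt, stem cells at the base divide steadily, their transit-amplifying (TA) daughters divide fast, and most differentiated enterocytes, goblet, Paneth, enteroendocrine (EEC) and tuft cells no longer divide.

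The cell types were those the authors assigned to clusters, and the S phase genes were part of the data that were clustered. Differences between types therefore describe how far the annotated classes stand apart. Fixed marker genes were highest in their own type in both mice for 6 of 6 enterocyte, goblet, Paneth and tuft markers. This held for 5 of 6 stem, TA and EEC markers and 7 of 7 markers of intraepithelial lymphocytes (IEL). It held for only 3 of 6 secretory progenitor markers, and no markers were set for goblet progenitors. The TA markers Mki67, Cdk1, Top2a and Birc5 are also in the list of G2 and mitosis genes used below.

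Promoter sequence was read first, since E2F binding near the start site is the feature these genes are best known to share. RefSeq windows on GRCm38.p6 (mm10), running from 250 bases before to 50 bases after an annotated start, were available for 30 of the 40 genes and came to 33 windows. Mcm4, Gmnn, Gins2, Rfc2, Dscc1, Atad2, Tipin, Usp1, Exo1 and Ccne2 had none. The E2F-type motifs TTTCCCGC, TTTGGCGC, TTTCGCGC and TTTGCCGC were searched on both strands. At least 1 of them was in 12 of the 33 windows (36.4%), against 2.26% of all 32851 windows. Among 47 windows of a list of 43 other replication genes the share was 27.7%. Among 21 windows of a list of 24 G2 and mitosis genes it was 4.76%. A match is a run of letters and was not tested for binding. The matches below were picked from those that lie before the annotated start. Of the genes shown, Mcm6 and Cdca7 passed the threshold between stem and TA cells. Mcm2, Ung, Rrm1, Rrm2, E2f8, Cdc45 and Rad51ap1 passed there too, but their windows held no match, and neither did that of Tyms. Clspn, which was lower in stem cells, passed as well, and its window held a match starting at 21, after the annotated start. Each line runs 5′ to 3′ on the gene's strand, with the motif or its reverse complement in capitals.
Mcm6, chr1:128359799-128359824, minus strand: gcgtatgctTTTGGCGCgaaaagtgc
Mcm6, chr1:128359736-128359761, minus strand: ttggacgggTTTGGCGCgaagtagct
Mcm5, chr8:75109347-75109372, plus strand: gccaagaacTTTCGCGCcaaaacgtc
Cdc6, chr11:98908004-98908029, plus strand: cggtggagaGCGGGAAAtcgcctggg
Cdca7, chr2:72476139-72476164, plus strand: cgtcccggcGCGGGAAAgccggtggc
Hells, chr19:38930919-38930944, plus strand: ccaccgggtTTTCCCGCgaaagagaa
Uhrf1, chr17:56304119-56304144, plus strand: cgagtcgggTTTCGCGCgcccaggcg
Pola1, chrX:93632277-93632302, minus strand: catcacaggGCGCCAAAtgcactccc

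The Mcm6 window held 3 such motifs, of which the one starting at -110 overlapped a further match that starts at -106, while the third started at -47 relative to the annotated start. The Mcm5 window held 2 that overlap, starting at -153 and -149. The remaining genes with a match were Dtl, Casp8ap2, Clspn, Pold3 and Ubr7. The cell cycle element TTTGAA, a motif of later cell cycle genes read on both strands like CCAAT, was in 18.2% of the S phase windows and 17.9% of all windows, against 66.7% of the G2 and mitosis windows. CCAAT was in 66.7% of the S phase windows and 37.4% of all windows, but in 81.0% of the G2 and mitosis windows.

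Summed over the 40 genes, S phase transcripts were most abundant among the 9 epithelial types in the annotated stem, TA and goblet progenitor cells, while IEL, which are immune cells, had 13.6 per 10000 UMIs in mouse 1 and 27 in mouse 2, the highest of any type there. In stem cells these transcripts made up 22.1 of every 10000 UMIs in mouse 1 (exact Poisson 95% interval 21.4 to 22.8) and 15.3 in mouse 2 (14.7 to 15.9). TA cells had 21.1 (20.8 to 21.5) and 15.3 (15.0 to 15.6), and goblet progenitors 18.3 and 12.5. The 3 types lay close together in each mouse, and the distance between the mice was wider than that between stem and TA cells.

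Secretory progenitors came next with 10.7 (9.76 to 11.7) and 6.16 (5.17 to 7.28), followed by EEC with 8.96 (8.23 to 9.74) and 5.71 (4.75 to 6.81) and tuft cells with 7.35 (6.55 to 8.23) and 6.52 (5.87 to 7.22). Neighbouring types in this group overlapped between the mice. Goblet cells were at 2.65 and 2.64 and enterocytes at 2.44 and 2.56 in mouse 1 and mouse 2, below the stem, TA and goblet progenitor cells of both mice. These intervals cover counting error only, and in a sum over cells, fewer cells in S phase and less RNA per cell cannot be told apart.

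Paneth cells had 0.393 and 0.435 S phase UMIs per 10000, but 10 genes took 82.6% and 81.9% of all their UMIs. With mitochondrial genes and the 10 most abundant genes removed from the denominator, their mean was 2.36, close to that of enterocytes (2.98). By UMIs of a gene per 1000000 UMIs of the sum (CPM), 23 of the 40 genes were lowest in Paneth cells among the 9 epithelial types in both mice. After scaling by the TMM factors of edgeR, 4 were, so the number of genes lowest in Paneth cells depended on the scaling. With the genes above removed from the denominator, Paneth cells still had the lowest sum in both mice. It was 2.27 and 2.44 per 10000 in mouse 1 and mouse 2, against 3.07 and 2.89 in enterocytes.

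**Figure D1:**
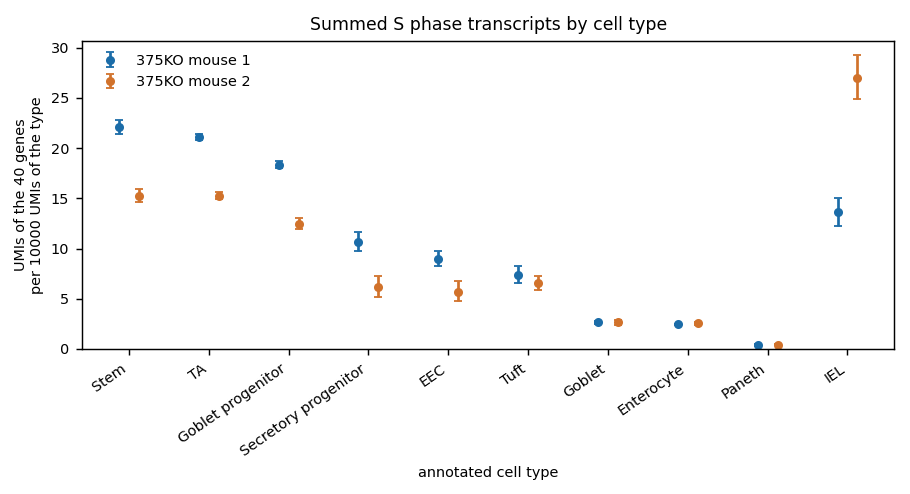
UMIs of the 40 S phase genes per 10000 UMIs (vertical axis) in each annotated cell type (horizontal axis), 1 point per 375KO mouse, with exact Poisson 95% intervals as bars. Stem, TA and goblet progenitor cells lie between 12.5 and 22.1, goblet cells and enterocytes between 2.44 and 2.65, and IEL differ most between the mice (13.6 and 27).

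The S phase level was higher in mouse 1 than in mouse 2 for stem, TA and both progenitor types. The ratio of mouse 1 to mouse 2 was 1.45 in stem cells, 1.38 in TA cells and 1.47 in goblet progenitors, while it was 0.954 in enterocytes and goblet cells were level. In stem cells 35 of the 40 genes had the higher CPM in mouse 1, and in TA cells 36 did. Mitochondrial reads also differed, with a median of 10.2% per stem cell in mouse 1 and 5.90% in mouse 2, and their part in the difference was not tested. Under a filter that kept cells with at most 10% mitochondrial reads and at least 2000 genes, stem cells were at 22.4 and 15.2 per 10000. That filter kept 59 of 139 stem cells in mouse 1 and 105 of 117 in mouse 2. With 1 library per mouse, a difference between animals and one between libraries cannot be told apart.

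Pcna, the sliding clamp, was among the few genes that ran the other way. In stem cells it had 14.6 CPM in mouse 1 and 58.0 in mouse 2, and in TA cells 21.6 and 46.2. The copy annotated as Pcna-ps2 had 6.17 and 4.36 CPM in stem cells, and 4.86 and 4.55 in TA cells. Reads that match both sequences cannot be assigned to either, so the level of Pcna is uncertain.

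The level of single genes followed the sum, with differences in where each peaked. Among the 9 epithelial types, with IEL left out, 36 of the 40 genes had their highest CPM in stem, TA or goblet progenitor cells in both mice. For 12 this was stem cells in both (17 after TMM scaling), among them the helicase subunits Mcm2, Mcm4 and Mcm6 and the loader Cdc6, the chromatin remodeller Hells and its partner Cdca7, and the repair enzyme Ung. In mouse 2, IEL were above stem cells for Mcm2, Mcm4, Mcm6 and Cdc6. For 10 it was TA cells in both (9 after TMM scaling), among them the helicase component Cdc45, the flap endonuclease Fen1, thymidylate synthase (Tyms), the checkpoint mediator Clspn and the repressor E2f8.

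**Figure D2:**
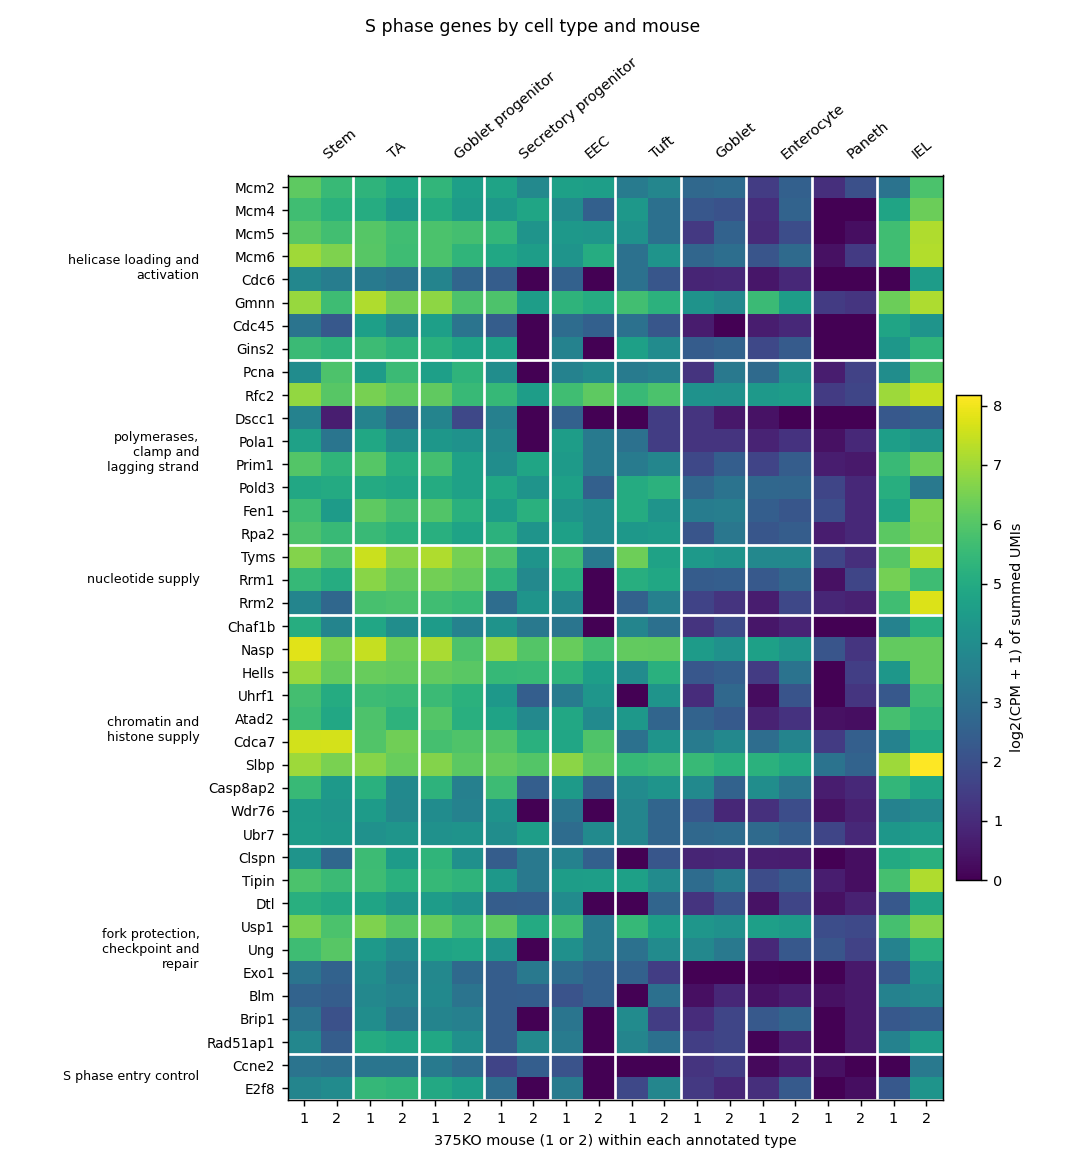
Level of each S phase gene (rows, grouped by role) in each annotated cell type and mouse (columns), as log2(CPM + 1) of summed UMIs on a colour scale from 0. The 3 progenitor types at the left are high for most rows, while enterocytes and Paneth cells are low for most, and 12 genes are at 0 UMIs in EEC of mouse 2.

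TA cells were compared with enterocytes to follow the absorptive lineage from dividing cells to the main differentiated type. All 40 S phase genes were higher in TA cells at an adjusted p under 0.05 (edgeR quasi-likelihood test). Of all 11013 genes tested, 51.7% passed in either direction, 22.6% higher and 29.1% lower in TA cells. The median log2 fold change of the S phase genes was 3.49, against -0.06 over all genes, and all 40 were higher in both mice. Of 43 other replication genes, 40 were higher and 0 lower. Among those that did not pass were the origin subunits Orc3 (0.07) and Orc4 (0.17).

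Helicase genes showed wide gaps between the types. Mcm6, a subunit of the replicative helicase, had 65.4 and 49.1 CPM in TA cells of mouse 1 and mouse 2 and 3.46 and 6.17 in enterocytes, a log2 fold change of 3.31 (SE 0.26, edgeR adjusted p = 1.11e-11). Mcm2, another subunit, had 38.5 and 28.2 CPM against 1.76 and 4.67 (log2 fold change 3.27, SE 0.32). Gmnn, which encodes the licensing inhibitor geminin, differed less, with 147 and 85.2 CPM in TA cells against 47.0 and 22.4 in enterocytes (1.34, SE 0.19). Every TA value lay above every enterocyte value for these 3 genes. Here and below, such separation is read from the same sums that gave the calls. Its share over all genes tested was not counted, so it is not separate support.

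Among polymerase and lagging strand genes, Fen1 had 69.8 and 52.3 CPM in TA cells and 4.49 and 3.55 in enterocytes, a log2 fold change of 3.51 (SE 0.24). Rfc2, a subunit of the clamp loader, had 89.2 and 69.3 CPM against 20.2 and 22.1 (1.51, SE 0.20), and Pold3, a subunit of polymerase delta, 30.8 and 27.8 against 5.68 and 5.42 (1.97, SE 0.23). Nucleotide supply genes had a median log2 fold change of 3.94, against 3.49 over the 40 genes, with Tyms below both. Tyms had 182 and 102 CPM in TA cells against 13.2 and 13.1 in enterocytes (3.02, SE 0.22). The large and small subunits of ribonucleotide reductase, Rrm1 and Rrm2, had log2 fold changes of 3.94 (SE 0.32) and 5.26 (SE 0.35), and Rrm2 was nearly absent from enterocytes at 0.568 and 2.43 CPM.

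Chromatin genes covered a broad range. The histone chaperone Nasp had 176 and 81.0 CPM in TA cells against 24 and 17.8 in enterocytes (2.16, SE 0.20), and Cdca7 60.7 and 84.5 against 6.51 and 12.0 (2.63, SE 0.22). Slbp, which binds the stem-loop of histone mRNAs, was still at 36.1 and 29.9 CPM in enterocytes against 103 and 76.8 in TA cells (1.03, SE 0.16). Its difference and that of Casp8ap2, a factor of histone mRNA processing (0.62, SE 0.24), were among the smallest of the 40.

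Fork and repair genes had a median of 4.36. Tipin, which helps to stabilise forks, had 48.6 and 35.3 CPM in TA cells against 2.74 and 3.93 in enterocytes (3.34, SE 0.24). Usp1, a deubiquitinase of DNA repair, had a smaller difference of 1.44 (SE 0.19), and the uracil glycosylase Ung one of 2.90 (SE 0.40). Exo1, an exonuclease, had 127 and 56 UMIs in TA cells but only 1 and 0 in enterocytes, which on pooled UMIs is a ratio of 319 with a counting interval of 56.6 to 12686. Among the 35 S phase genes with at least 10 UMIs in enterocytes, log2 fold changes ran from 0.62 (Casp8ap2) to 5.52 (Clspn).

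The 2 genes of S phase entry control were scarce in enterocytes. Cyclin E2 (Ccne2) had 8.06 and 8.04 CPM in TA cells and 3 UMIs in enterocytes of each mouse (log2 fold change 4.40, SE 0.51). E2f8, a repressor E2F made in S phase, had 42.5 and 39.9 CPM against 1.14 and 3.93 (3.98, SE 0.34). Of a list of 12 E2F, partner and pocket protein genes, 6 were higher in TA cells. The retinoblastoma gene Rb1 was the 1 that was lower (-0.997, SE 0.19). The called share, 58.3%, was near the 51.7% of all genes tested that passed in either direction. Summed, the list gave 2.95 and 2.69 UMIs per 10000 in TA cells and 1.62 and 1.69 in enterocytes. The largest increases were those of E2f7, E2f1 and Tfdp1. E2f7 had 41 and 65 UMIs in TA cells and 0 in enterocytes of either mouse, at least 61.7-fold higher at a limit of 3 UMIs over both mice. E2f1 had a log2 fold change of 3.79 (SE 0.45) and the partner Tfdp1 one of 2.04 (SE 0.68). In the list of other replication genes the largest were Asf1b, a histone chaperone (5.89, SE 0.38), Mcm3 (5.23, SE 0.35) and the origin subunit Orc1, which had 52 and 20 UMIs against 2 and 0, a ratio of 62.8 with a counting interval of 16.8 to 529.

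Stem cells were then compared with TA cells, the step at which division speeds up. Despite nearly equal sums, single S phase genes differed in both directions: 4 were higher in stem cells, 6 were lower and 30 did not pass. Of all genes tested, 4.83% passed in either direction, 1.9% higher and 2.93% lower. The median log2 fold change was 0.16, against -0.01 over all genes. The calls depended on the model, as 3 passed in the DESeq2 Wald test (Cdca7, Ung and Rrm2) and 1 (Rrm2) when the mouse was not used as a term. In both mice separately, all 10 kept their direction, but the same mice gave the calls, so this is not separate support.

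The genes higher in stem cells were Mcm2, Mcm6, Cdca7 and Ung. Cdca7 had 197 and 199 CPM in stem cells against 60.7 and 84.5 in TA cells, a log2 fold change of 1.60 (SE 0.20, edgeR adjusted p = 2.19e-06). Mcm6 had 128 and 95.4 CPM against 65.4 and 49.1 (1.09, SE 0.22, edgeR adjusted p = 0.00183). Ung, which removes uracil from DNA, had 48.8 and 64.8 against 19.9 and 14.2 (1.84, SE 0.31, edgeR adjusted p = 0.000850). Every stem cell value lay above every TA value for these 3 genes, and this also held for Mcm2, with 70.1 and 44.3 CPM against 38.5 and 28.2 (0.90, SE 0.26, edgeR adjusted p = 0.0461). How many of all genes tested separate in this way was not counted. Mcm2 did not pass under the stricter cell filter (edgeR adjusted p = 0.0652) or without the EEC that held the most S phase UMIs (edgeR adjusted p = 0.0511).

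The genes lower in stem cells were led by ribonucleotide reductase. Rrm2 had 12.3 and 5.61 CPM in stem cells against 54.6 and 56.8 in TA cells, and it fell by 2.48 on the log2 scale (SE 0.34, edgeR adjusted p = 2.14e-05). Rrm1 had 43.2 and 32.4 CPM against 104 and 72.6 (-1.09, SE 0.29, edgeR adjusted p = 0.0361), and E2f8 12.3 and 14.3 against 42.5 and 39.9 (-1.5, SE 0.34, edgeR adjusted p = 0.00681). The stem and TA values of these genes did not overlap. Tyms, the remaining nucleotide gene, had the same sign in both mice (-0.65, SE 0.21) but did not pass (edgeR adjusted p = 0.0663). It passed after thinning (-1.02, edgeR adjusted p = 0.00144), under the stricter cell filter (edgeR adjusted p = 0.0210) and with no filter on low counts (edgeR adjusted p = 0.00367).

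A further 3 genes that were lower, named after their values were seen, act at the active fork or in repair. Cdc45, which joins the loaded helicase when it is activated, had 7.85 and 3.74 CPM in stem cells against 23.3 and 12.8 in TA cells (-1.52, SE 0.38). Clspn had 17.9 and 5.61 against 47.5 and 21.5 (-1.43, SE 0.30), and Rad51ap1, a DNA repair gene, 12.9 and 4.36 against 31.4 and 26.9 (-1.62, SE 0.37). The values of Cdc45 and Rad51ap1 did not overlap between the types, and neither did those of Clspn. By role, helicase genes had 2 higher and 1 lower, nucleotide genes 0 and 2, chromatin genes 1 and 0, fork and repair genes 1 and 2, entry genes 0 and 1, and none of the 8 polymerase and clamp genes passed in edgeR (2 at an unadjusted p under 0.05, and 0 past the threshold in DESeq2).

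**Figure D3:**
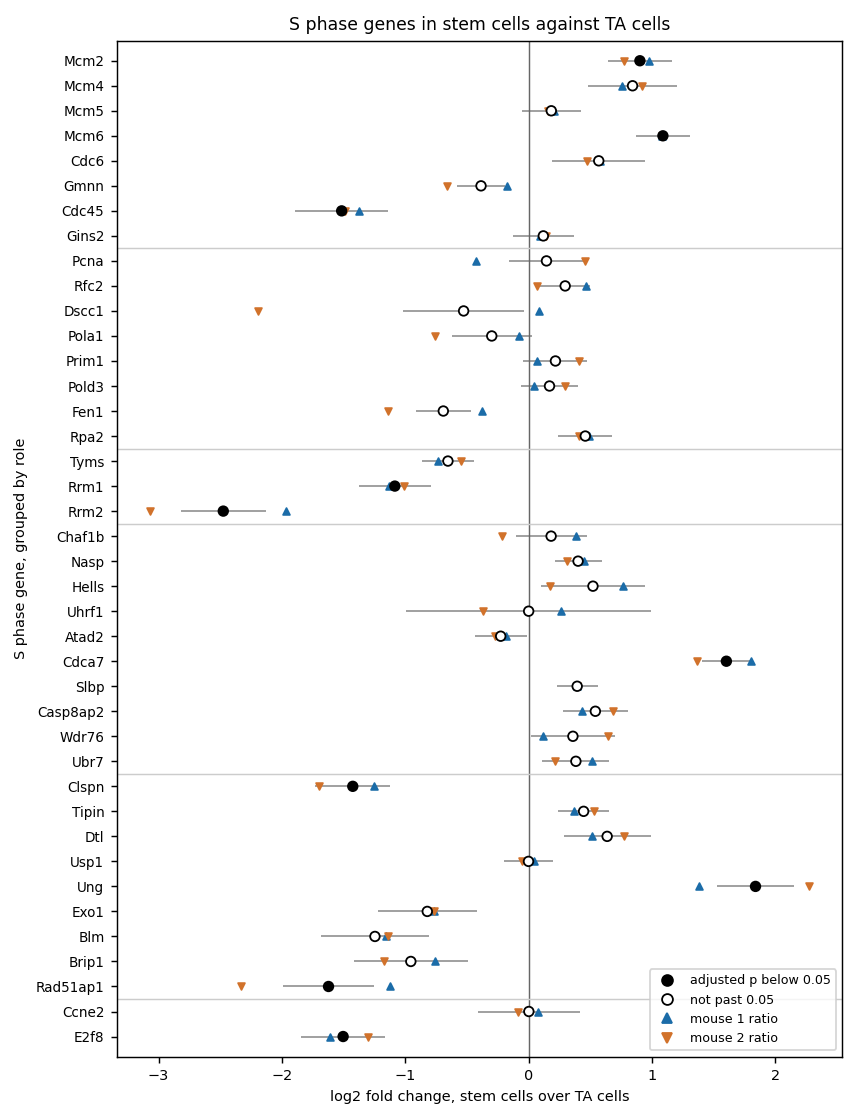
Log2 fold change of stem cells over TA cells (horizontal axis) for the 40 S phase genes (vertical axis, grouped by role), with circles for the fit, bars for ± 1 SE and triangles for the ratio in each mouse. Filled circles mark the 10 genes past an adjusted p of 0.05, from Rrm2 at -2.48 to Ung at 1.84.

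The other named genes did not pass, which does not show that their levels were equal. Slbp (0.39, SE 0.17), Nasp (0.40, SE 0.19), Tipin (0.45, SE 0.21) and Rfc2 (0.30, SE 0.20) were above 0, Gmnn (-0.39, SE 0.19) and Fen1 (-0.69, SE 0.22) below, and Pold3 (0.17, SE 0.23), Usp1 (-0.00, SE 0.20) and Ccne2 (0.00, SE 0.42) near 0. In the list of 43 other replication genes, 1 was higher in stem cells and 6 were lower. The higher one was Cdt1, which loads the helicase with Cdc6 (1.04, SE 0.22). Those lower were Chtf18, Dbf4, Asf1b, Tk1, Rfc5 and Mcm10, named after their values were seen. The list of 24 G2 and mitosis genes was lower in stem cells for 23, with a median of -2.63, and the remaining one, Mki67, had -2.21 (SE 0.55, edgeR adjusted p = 0.0640).

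The TA class is made of 4 clusters, and S phase transcripts were spread unevenly over them. Cluster 10 had 40.3 and 31.3 S phase UMIs per 10000 in mouse 1 and mouse 2, cluster 13 had 27.1 and 15.3, cluster 5 had 16.5 and 10.9, and cluster 8 had 8.52 and 7.28. The order was the same in both mice. Cluster 10 had the highest CPM among the stem cluster and the 4 TA clusters for 36 of the 40 genes in both mice. Cdca7 was the exception that was highest in the stem cluster in both, with 197 and 199 CPM against 76.6 and 103 in cluster 10. Cluster 13 had 142 and 198 CPM of it, so in mouse 2 the stem cluster and cluster 13 were level.

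Against cluster 10, stem cells were not higher for Mcm2 or Mcm6. For Ung the mice differed, with 48.8 and 64.8 CPM in stem cells against 68.6 and 42.5 in cluster 10. Mcm6 had 160 and 136 CPM in cluster 10, 40.9 and 23.6 in cluster 5 and 16.2 and 22.1 in cluster 8, with 128 and 95.4 in stem cells in between. Rrm2 had 136 and 142 CPM in cluster 10 and 17.4 and 13.6 in cluster 8, and stem cells (12.3 and 5.61) lay below all 4 TA clusters. G2 and mitosis transcripts were ordered differently. Cluster 5 had 55.3 and 40.1 UMIs of the 24 genes per 10000, cluster 10 had 21.4 and 19.1, and stem cells had 7.53 and 4.73. The clusters were formed on these genes among others, and these values were not tested.

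**Figure D4:**
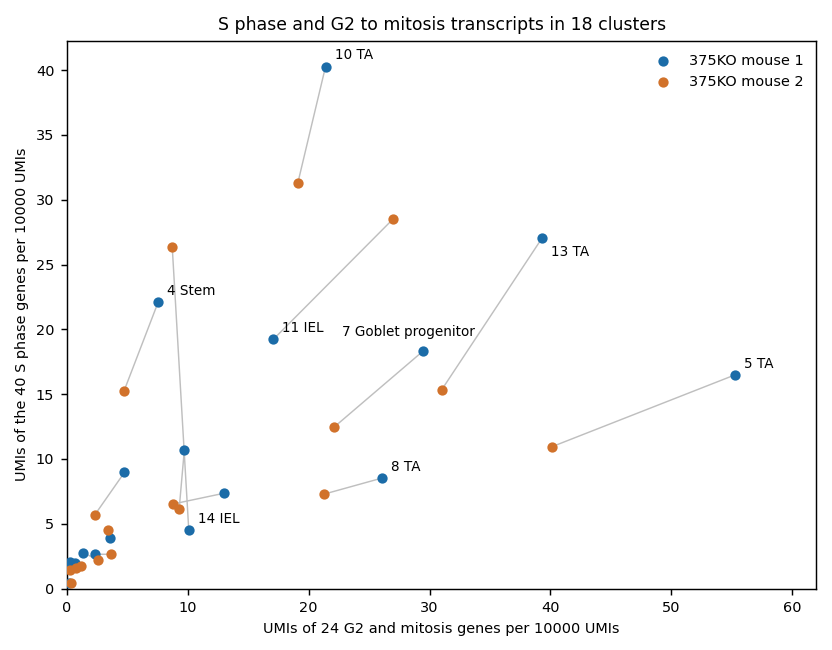
UMIs of the 40 S phase genes (vertical axis) against UMIs of 24 G2 and mitosis genes (horizontal axis), both per 10000 UMIs, for 18 clusters, with 1 point per 375KO mouse and a line joining the mice. TA cluster 10 is highest in S phase transcripts (40.3 and 31.3), TA cluster 5 in G2 and mitosis transcripts (55.3 and 40.1), and the stem cluster is high in the former with few of the latter.

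Goblet progenitors were compared with goblet cells, the secretory counterpart of the absorptive step. Of the 40 S phase genes, 39 were higher in progenitors, where 13.2% of all genes tested were higher, 16% lower and 29.1% passed in either direction. The median log2 fold change was 2.43, against -0.01 over all genes. Ung was the gene that did not pass, with 26.1 and 27.6 CPM in progenitors against 13 and 8.94 in goblet cells (0.73, SE 0.37, edgeR adjusted p = 0.156).

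Nucleotide supply and helicase genes were well above the goblet level. Tyms had 147 and 87.0 CPM in progenitors against 20.4 and 17.4 in goblet cells (2.14, SE 0.24), and Rrm2 49.7 and 45.0 against 2.12 and 1.34 (4.19, SE 0.43). Mcm6 had 56.6 and 39.6 CPM against 5.55 and 6.71 (2.54, SE 0.32). In each of these genes every progenitor value lay above every goblet value.

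The other named genes also passed, over a wide range. Slbp had 99.8 and 68.4 CPM in progenitors against 45.0 and 36.7 in goblet cells (0.55, SE 0.18, edgeR adjusted p = 0.0206). Log2 fold changes were 1.35 for Usp1 (SE 0.23), 1.34 for Rfc2 (SE 0.24), 1.67 for Pold3 (SE 0.29), 1.81 for Fen1 (SE 0.26), 1.86 for Nasp (SE 0.23), 1.87 for Cdca7 (SE 0.27), 1.92 for Tipin (SE 0.27), 1.97 for both Gmnn (SE 0.23) and Mcm2 (SE 0.36), 1.95 for Ccne2 (SE 0.55), 3.71 for Rrm1 (SE 0.40) and 3.82 for E2f8 (SE 0.52). Exo1 had 0 UMIs in goblet cells of both mice and 70 and 10 in progenitors, at least 22.8-fold higher at a limit of 3 UMIs over both mice.

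Secretory progenitors and EEC were the scarcest pair, with 31 and 19 progenitors and 54 and 20 EEC in mouse 1 and mouse 2. In edgeR 0 of the 40 S phase genes passed, with 1 at an unadjusted p under 0.05, and DESeq2 called 0. Of all genes tested, 9.39% passed in either direction, 4.03% higher and 5.36% lower. The median log2 fold change was 0.45, against -0.06 over all genes, and 21 of the 40 genes had the same sign in both mice. Of these genes 16 had 0 UMIs in at least 1 of the 4 sums.

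The EEC value rested on few cells. In mouse 1 a single EEC held 244 of the 556 S phase UMIs of its type (43.9%), with 64750 UMIs and 7547 detected genes in all, and 74 UMIs of G2 and mitosis genes. Without it, EEC of mouse 1 had 5.61 S phase UMIs per 10000 in place of 8.96, next to 5.71 in mouse 2. With that cell left out, a choice made after seeing the data, 2 genes were higher in secretory progenitors. They were Tyms (1.49, edgeR adjusted p = 0.0479) and Nasp (1.14, edgeR adjusted p = 0.0445). The median log2 fold change rose to 1.28.

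With all cells, Tyms had 58.6 and 17.9 CPM in secretory progenitors against 48.3 and 9.28 in EEC (0.47, SE 0.44), and Nasp 111 and 62.5 against 77.3 and 51.1 (0.64, SE 0.33). Slbp was level or higher in EEC, at 108 and 69.6 CPM against 73.8 and 62.5 (-0.26, SE 0.28). Rrm1 had 18 and 3 UMIs in secretory progenitors and 21 and 0 in EEC, Rrm2 3 and 4 against 8 and 0, and E2f8 3 and 0 against 6 and 0, so at this depth no direction was detectable for these genes. The remaining named genes ranged from -0.46 for Rfc2 (SE 0.41) to 0.76 for Usp1 (SE 0.38) and 0.89 for Fen1 (SE 0.56). In between were Gmnn (0.52, SE 0.41), Mcm6 (0.44, SE 0.59), Mcm2 (0.05, SE 0.65), Pold3 (0.58, SE 0.53), Cdca7 (0.65, SE 0.42), Tipin (-0.33, SE 0.56), Ung (-0.13, SE 0.95) and Ccne2, which had 1 UMI in each mouse of the former and 2 and 0 in the latter.

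To compare cells at equal depth, each cell was thinned to 5000 UMIs and counted when at least 5 of these came from the 40 genes. In stem cells 81.6% of 136 cells reached this in mouse 1 (exact 95% interval 74.1 to 87.7) and 70.1% of 117 in mouse 2 (60.9 to 78.2). In TA cells the shares were 77.2% of 320 (72.2 to 81.7) and 62.8% of 323 (57.3 to 68.1), and in goblet progenitors 64.8% of 162 and 54.8% of 84. At this depth and minimum, most cells of all 3 types were thus counted, and the intervals of stem and TA cells overlapped within each mouse. With thinning to 3000 UMIs the means over the mice were 46.8% in stem cells, 45.8% in TA cells and 43.7% in goblet progenitors.

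Differentiated types had few such cells. Enterocytes reached the minimum in 1.18% of 930 cells (0.592 to 2.11) and 4.45% of 382 (2.61 to 7.03), and goblet cells in 3.99% of 276 and 3.62% of 138. Paneth cells, which should lack these transcripts, gave 0 of 78 and 0 of 54, with upper bounds of 4.62% and 6.6%. Their median depths before thinning were 44684 and 80820 UMIs, against 16982 and 13405 in enterocytes. Thinning therefore removes a larger part of any free RNA from Paneth cells, most of whose UMIs come from 10 genes, and their thinned share does not measure the background of the other types. Without thinning, 2.56% and 20.4% of Paneth cells had at least 5 S phase UMIs, against 46.3% and 24.6% of enterocytes and 98.8% of TA cells in both mice. At full depth the shares of Paneth cells and enterocytes of mouse 2 were thus close together, at unlike depths. How much of either share is free RNA was not tested, so these full-depth shares are not read as expression.

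EEC (15.1% of 53 and 15.0% of 20) and tuft cells (12.8% of 39 and 15.8% of 38) lay in between and close together. Secretory progenitors differed between the mice, with 61.3% of 31 (42.2 to 78.2) and 10.5% of 19 (1.30 to 33.1), so no single share describes them. The minimum splits a range, not distinct classes. In TA cells 44 of 320 and 57 of 323 cells had 4 or 5 S phase UMIs. Thinning left out 39 of 50 IEL in mouse 1 and at most 3 cells of any other type and mouse.

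**Figure D5:**
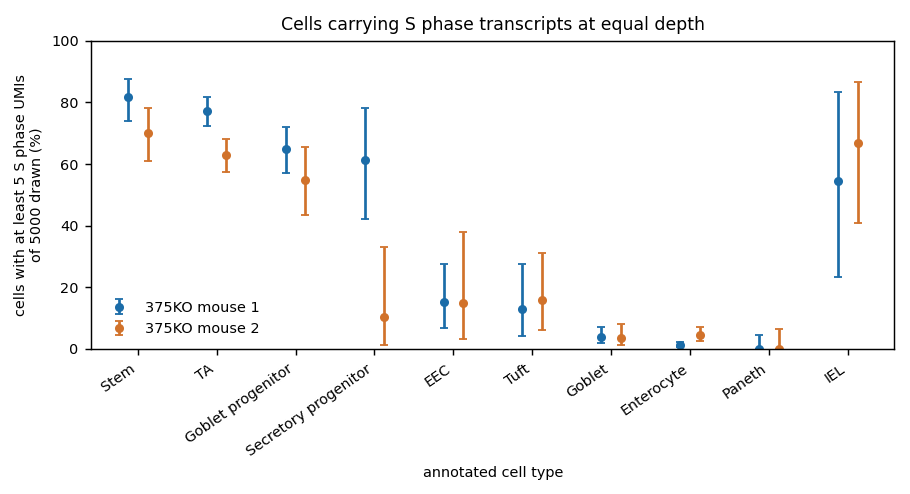
Percent of cells with at least 5 UMIs of the 40 S phase genes after thinning to 5000 UMIs (vertical axis) by annotated cell type (horizontal axis), 1 point per 375KO mouse, with exact binomial 95% intervals as bars. Stem and TA cells lie between 62.8% and 81.6%, enterocytes and goblet cells at or under 4.45%, and the secretory progenitors of the mice stand apart (61.3% and 10.5%).

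Cells above the minimum also carried more transcripts of replication genes that were not used to choose them. In TA cells the 43 other replication genes gave 22.8 and 20.3 UMIs per 10000 above the minimum and 10.0 and 11 below it. In stem cells they gave 19.1 and 16.0 above and 9.20 and 7.71 below. G2 and mitosis genes separated these TA cells less, with 41.8 and 28.9 above the minimum and 35.2 and 32.9 below it, and the direction differed between the mice. In stem cells they gave 8.07 and 5.20 above it and 6.32 and 2.74 below it, higher above it in both mice. Cells are not replicates, and these values were not tested.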

How the data were processed

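Droplet libraries (10x Genomics 3′ chemistry) of jejunal crypt cells of 2 375KO mice were analysed. The authors aligned reads to mm10 and made UMI count matrices with Cell Ranger 3.0.1, and they deposited these counts per library. SoupX was used against ambient RNA according to the study's methods, which do not name the tables it was applied to. The matrices hold entries stored as 0 (302472 and 176897), which were dropped. The authors removed doublets with scDblFinder and cells with under 1500 genes or over 25% mitochondrial reads, and deposited the mitochondrial percent and the annotation of each cell. The corrected (sctransform) table and the doublet calls were not used. Another 2937 cells in the tables of the whole study are outside the samples given here and were left aside. All 3275 kept cells were joined: annotation rows follow the column order of the authors' table of kept cells, where the UMI and gene totals of each cell were equal, and its column barcodes were then found in the matrices.

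UMIs were summed per mouse and annotated type. The 18 sums of 9 epithelial types were fitted with edgeR 4.0.16 (R 4.3.3; filterByExpr, TMM, robust quasi-likelihood test) with type and mouse as terms and 8 residual degrees of freedom. The same mouse gives every type, which is where the pairing comes from. Tests were two-sided, adjusted by Benjamini-Hochberg over 11013 genes at a threshold of 0.05. All 40 genes passed the filter. TMM factors were 0.156 and 0.121 in Paneth cells and 0.952 to 1.59 elsewhere. Log2 fold changes are on the TMM scale, while CPM are on library totals. The SE is the log2 fold change over the square root of F. Ratios per mouse used a prior count of 2, with no test. With the mouse term, p values measure how far differences between types varied between the 2 mice, under 1 spread shared by the types. DESeq2 1.42.0 was an alternative. In simulated counts for TA cells against enterocytes the fit was checked for recovery of known changes.

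Poisson and binomial intervals are exact at 95% and cover counting error only. A count of 0 was read as allowing 3 UMIs. Each sum needed at least 10 cells, which all 18 had. The genes named were, per role, the 3 with the highest mean log2 CPM over the sums, plus any past the threshold in the direction opposite to most, and from the other replication and E2F lists the 3 largest changes between TA cells and enterocytes. The 40 genes and all lists were chosen with earlier results of these data known. Promoter windows are those of RefSeq. A result for 1 gene of the other replication list is not reported here.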

Additional observations from a re-analysis of the deposited data

Results flagged for a closer look

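S phase transcripts also appeared in barcodes that are in the matrices but not among the annotated cells, data the comparisons above do not use. In mouse 1, 5583 such barcodes held 9435 UMIs of the 40 genes, or 4.65 per 10000 UMIs, with a median depth of 1581 UMIs per barcode. In mouse 2, 58 barcodes held 456, or 3.02 per 10000, with a median depth of 19375. Both values lie above those of enterocytes and goblet cells and below those of tuft cells. These barcodes include the doublets and low-quality cells that the authors removed, and no cell type was given to them.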

How the results depend on the processing

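All 40 S phase genes in TA cells against enterocytes, and 39 in goblet progenitors against goblet cells, kept their direction in either mouse alone. Their counts stayed within 1.5 times of these under every alternative (33 to 40, and 28 to 40), including the fits without the replicate block, which gave 37 and 29. Thinning left 33 of the 40 to be tested. For stem against TA cells the count of 10 fell to 3 with DESeq2 and to 1 without the replicate block, and was 9 to 14 elsewhere. The genes changed too, as Tyms passed in place of Mcm2 under the stricter cell filter and in place of Cdc45 after thinning, and Mcm2 was lost without the EEC with the most S phase UMIs. All 10 kept their direction without either replicate. The directions kept in these 3 comparisons come from the same mice that gave the calls, so they are not separate support. For secretory progenitors against EEC the count of 0 became 2 after thinning to 5000 UMIs (Tyms, Cdca7), 3 under the stricter cell filter (Tyms, Nasp, Mcm5) and 2 without the EEC with the most S phase UMIs, and it stayed 0 without the block. The cause was not tested, and no called gene named in the text reversed.

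The summed level moved by more than the spread between the mice to 3.06 in enterocytes, 2.62 in goblet cells and 0.492 in Paneth cells under the stricter cell filter. Without mitochondrial genes and the 10 most abundant genes it was 2.98, 3.63 and 2.36 in these types and 7.85 in tuft cells. Shares of cells depend on the depth and the minimum by construction. With thinning to 3000 UMIs they were 46.8% in stem cells, 45.8% in TA cells, 43.7% in goblet progenitors, 1.45% in goblet cells, 7.13% in EEC, 6.51% in tuft cells and 36.0% in IEL. With a minimum of 3 UMIs they were 91.6%, 88.2% and 79.1% in stem, TA and goblet progenitor cells, 13.4% in enterocytes, 15.9% in goblet cells, 0.641% in Paneth cells, 37.6% in EEC, 48.1% in tuft cells and 79.8% in IEL. With a minimum of 10 they were 40.9%, 37.2%, 33.8%, 0.369% (enterocytes), 1.45% (goblet cells), 6.89% (EEC), 2.60% (tuft cells) and 40.4% (IEL). The stricter cell filter gave 12.4% in EEC and 17.0% in tuft cells. The smallest sums, EEC and secretory progenitors of mouse 2, held 123 and 138 S phase UMIs, which limits what that pair can show.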

Other observations

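Annotated IEL, which are immune cells within the epithelium and were left out of the fits, held the widest gap in S phase transcripts between the mice. The sum was 13.6 UMIs per 10000 in mouse 1 (50 cells) and 27 in mouse 2 (18 cells). In cluster 11 it was 19.2 (28 cells) and 28.5 (5 cells), and in cluster 14 it was 4.49 (22 cells) and 26.3 (13 cells). Slbp reached 126 and 288 CPM in IEL, Rrm2 49.5 and 213, and Mcm6 49.5 and 151. In mouse 2 a single IEL held 24.6% of the S phase UMIs of its type, and in mouse 1 one held 20.4%.

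Enterocyte clusters were not alike either. Cluster 2 had 3.87 and 4.52 S phase UMIs per 10000 in mouse 1 and mouse 2, while the other 4 enterocyte clusters ranged from 1.42 to 2.78. Cluster 2 also had the most G2 and mitosis transcripts of the 5, with 3.54 and 3.38. Among tuft cells of mouse 1, a single cell held 79 of 304 S phase UMIs (26.0%) and 206 of 537 G2 and mitosis UMIs.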
